A study of Mus musculus with 9 samples.

Results

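The nuclear genes of the mitochondrial respiratory chain were followed through 9 exon arrays of primary microglia. The cells came from the brains of wild-type CD-1 mouse pups (P0 to P1, brains pooled from a litter, per the labels), were grown for 5 to 7 days with 10 ng/ml each of the growth factors M-CSF and GM-CSF, and were then moved to serum-free medium overnight. Resting (M0) cells received PBS, M1-skewed cells 100 ng/ml of LPS, the bacterial ligand of Toll-like receptor 4, and M2a-skewed cells 20 ng/ml of the cytokine IL-4. All were lysed after 4 h, and each condition was measured on 3 arrays. The members were chosen by gene symbol alone: every row whose symbol starts with Nduf, Uqc, Atp5 or Cox4 to Cox8, or is Sdha, Sdhb, Sdhc, Sdhd or Cyc1. This took in 90 of the 21212 rows of the table, 18786 of which have 1 gene symbol. Of these 90 genes, 37 belong to complex I, 4 to complex II, 8 to complex III, 17 to complex IV and 14 to complex V, and the other 10 (Ndufaf and Uqcc symbols) are assembly factors. The subunits encoded in mitochondrial DNA were not analysed here.

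The respiratory chain sits in the inner membrane of the mitochondrion. Complex I takes electrons from NADH and complex II from succinate, both hand them through coenzyme Q to complex III, cytochrome c carries them on to complex IV, which reduces oxygen, and complex V, the ATP synthase, lets the pumped protons back to make ATP. Most subunits are encoded in the nucleus and each complex needs its own assembly factors. In macrophages given LPS, glycolysis rises while oxidative phosphorylation is held down, and succinate and complexes I and II take part in the inflammatory response, whereas IL-4 is known for keeping oxidative metabolism up.

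Values are log2 expression values, and each difference below is a difference of mean log2 values from limma, written with its SE after ±. A gene is called lower or higher at a p-value adjusted over all 21212 rows under 0.05. Nothing in the labels says whether the arrays of a condition came from separate cultures, so the p-values measure the spread between these arrays. Because RNA was taken from whole cultures, fewer cells of a type and less RNA per cell cannot be told apart.

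The third PBS and the third LPS array stood apart from the rest. All 12 measured motile cilia markers were higher there than on both other arrays of the condition, by a median of 1.81 (PBS) and 1.54 (LPS), and the list's median level ran from 7.66 to 9.17 over the PBS arrays, 7.24 to 8.83 over the LPS arrays and 8.70 to 8.87 over the IL-4 arrays. Also highest there were 7 of 8 (PBS) and 8 of 8 (LPS) oligodendrocyte lineage markers, and 7 of 8 (PBS) and 6 of 8 (LPS) astrocyte markers. Of 9 microglia markers, 7 (PBS) and 5 (LPS) were highest there and 2 (PBS) and 4 (LPS) lowest. Of 7 fibroblast and meningeal markers, 4 (PBS) and 5 (LPS) were lowest there and 1 highest in each condition. Respiratory chain genes tended to be lowest on the same arrays: 65 of 90 were lowest on the third PBS array and 70 of 90 on the third LPS array, against 10321 and 10135 of 21212 rows. Microglia markers read at least 6.19 on every array, where the lowest value of the table was 2.05, and 7 of the 9 measured were lower and 1 higher with LPS. As a check of the stimuli, Il6 was higher with LPS by 8.73 and Chil3 with IL-4 by 5.47 on the log2 scale. The part of these marker differences in the results below was not tested, and counts without both arrays are given beside the main ones.

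Of the 90 respiratory chain genes, 41 were called lower and 0 higher with LPS than with PBS and 49 did not pass the test, where 22.4% of all rows were called lower and 15.4% higher. At an unadjusted p under 0.05, 54 of the 90 differed. The median difference was -0.18 over the members and 0.01 over all rows, and the members ranged from -0.63 to 0.16. In 51 genes every LPS array lay below every PBS array, a pattern seen in 25.4% of all rows. Members are bright rows, and 67 of them lay among the 7070 brightest rows, of which 35.8% were called lower, with a median of -0.13. Of those 67 genes 36 were called lower (median -0.20), and of the other 23 genes 5 (median -0.03). Pairing the arrays by replicate number, 77, 79 and 79 of the 90 genes were lower with LPS in pairs 1, 2 and 3, with median differences of -0.18, -0.17 and -0.21. The labels do not say that arrays of the same number were matched.

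The size of this shift depends on how the arrays are put on one scale. When each array's median was subtracted from the deposited values, the median difference of all rows moved from 0.01 to 0.12, the members' median became -0.07, 16 members were called lower and 4 higher, and 62 of the 90 differences were negative in place of 81. All rows split into 3266 higher and 4748 lower as deposited, and into 5872 higher and 3323 lower after that subtraction. With quantile normalization the members' median became -0.24, with 54 called lower and 3 higher and 73 negative differences, beside 3440 higher and 4694 lower rows. With the arrays weighted by their quality, 58 members were called lower and 3 higher, beside 4492 higher and 6144 lower rows. Without the third PBS and the third LPS array, 53 members were called lower and 1 higher, beside 4046 higher and 6000 lower rows. Leaving out the second PBS array alone left 26 members called lower, beside 3944 rows. Leaving out each of the others left 30 to 45 members, beside 4091 to 4955 rows. Of the 41 calls, 13 held in each of 20 other settings (9 in complex I, 1 in complex II, 2 in complex V and 1 assembly factor).

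**Figure D1:**
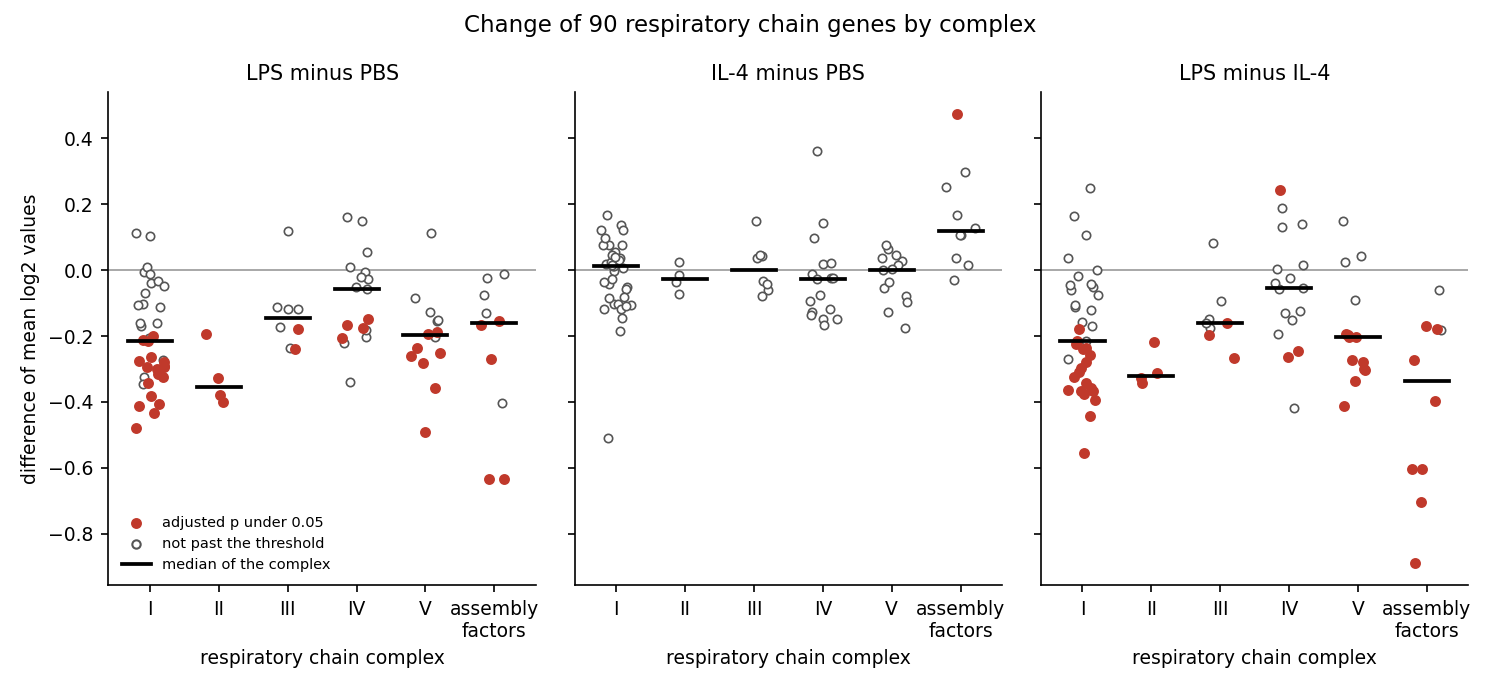
Difference of mean log2 values for each of the 90 respiratory chain genes, by complex, for LPS against PBS, IL-4 against PBS and LPS against IL-4 (3 arrays per condition). Filled points passed an adjusted p under 0.05 (limma), open points did not, and bars are medians of the complex. The LPS panels lie mostly below 0, with 41 and 46 genes called lower, while the IL-4 panel lies around 0 with 1 gene called higher. With array medians subtracted, 16 and 13 genes are called lower and 4 and 9 higher in the LPS panels. The medians of complex IV in the LPS panels turn positive when array medians are subtracted and are both -0.14 with quantile normalization.

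Complex I, the NADH dehydrogenase and the largest group, held the most genes called lower with LPS: 18 of 37, with 0 higher and a median of -0.22. The share of 48.6% lower stands beside 22.4% of all rows and 35.8% of the 7070 brightest rows. With array medians subtracted 10 of the 37 were lower and 1 higher, with a median of -0.10. By their symbols these 37 include Ndufa4, which is now known as a subunit of complex IV, and its isoform Ndufa4l2, neither of which was called. Its 6 measured core subunits, most of which carry the flavin or iron-sulfur clusters, had a median of -0.26 and 5 of them fell. Among these, Ndufs7, which holds the last iron-sulfur cluster before coenzyme Q, read 11.71, 11.72 and 11.63 with PBS, 11.24, 11.28 and 11.24 with LPS and 11.82, 11.77 and 11.84 with IL-4. Every LPS array lay below every PBS and IL-4 array, and Ndufs7 fell by 0.43 ± 0.047 against PBS (1.35-fold lower, adjusted p = 0.000135). The flavoprotein subunits Ndufv1 (-0.20 ± 0.052, adjusted p = 0.0151) and Ndufv2 (-0.32 ± 0.053, adjusted p = 0.00144) fell as well, as did the iron-sulfur subunits Ndufs1 (-0.21 ± 0.069, adjusted p = 0.0398) and Ndufs8 (-0.31 ± 0.105, adjusted p = 0.0449). Ndufs3, the remaining measured core subunit, differed by -0.16 ± 0.067 and did not pass the test (adjusted p = 0.0954), although its LPS arrays also lay below the PBS arrays.

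Of the 10 Ndufb genes, which build the far end of the membrane arm, 5 fell and 0 rose, with a median of -0.29. Ndufb11, an X-linked subunit of that arm, read 10.34, 10.39 and 10.25 with PBS, 9.96, 9.94 and 9.85 with LPS and 10.22, 10.21 and 10.25 with IL-4. The LPS arrays lay below all others, and the difference from PBS was -0.41 ± 0.055, adjusted p = 0.000422. Ndufb5 (-0.30), Ndufb8 (-0.29), Ndufb9 (-0.29) and Ndufb10 (-0.34) were the others called lower. Ndufb4 spread widely, at 7.13, 7.11 and 7.04 with PBS, 6.69, 7.04 and 6.52 with LPS and 5.79, 6.99 and 6.97 with IL-4. Its first IL-4 array lay far below all other arrays, and although the IL-4 arrays were all below the PBS arrays neither stimulus passed the test.

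The other 21 genes counted here are accessory (supernumerary) subunits, with Ndufa4 and Ndufa4l2 among them, of which 8 fell and 0 rose, with a median of -0.16. The largest fall among all complex I genes was that of Ndufv3, an accessory subunit beside the flavoproteins, which read 9.30, 9.33 and 9.25 with PBS, 8.75, 8.95 and 8.74 with LPS and 9.12, 9.15 and 9.26 with IL-4. LPS and PBS arrays did not overlap, and the difference was -0.48 ± 0.070, adjusted p = 0.000719. Ndufa8 (-0.41), Ndufa6 (-0.38), Ndufa3 (-0.30), Ndufa10 (-0.28), Ndufa11 (-0.28), Ndufc2 (-0.26) and Ndufa13 (-0.22) made up the rest. Ndufc2, the complex I row with the highest signal, read 11.91, 11.94 and 11.96 with PBS, 11.68, 11.65 and 11.70 with LPS and 11.88, 11.95 and 11.90 with IL-4. Its spread within a condition was small, and the LPS arrays lay below all others. Near 0 were Ndufa12 (-0.01), Ndufs5 (-0.01) and Ndufa5 (-0.03), and the largest difference upward was that of Ndufa4l2 (0.11 ± 0.072, adjusted p = 0.258).

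The promoter windows shown here run from 160 bases before to 30 bases after the annotated start, 5′ to 3′ (RefSeq, GRCm38.p6). They belong to the called member with the largest fall in each complex, so that a reader can see the sequence in front of the genes that moved. Capitals mark letters of 3 motifs looked for on both strands, the core TGCGCA that NRF1 binds (its own reverse complement), the ETS core CCGGAAG that GABPA binds and the YY1 core AAGATGGC. In the Ndufv3 window, at chr17:31519955-31520144 (plus strand), none of them was found.
Ndufv3: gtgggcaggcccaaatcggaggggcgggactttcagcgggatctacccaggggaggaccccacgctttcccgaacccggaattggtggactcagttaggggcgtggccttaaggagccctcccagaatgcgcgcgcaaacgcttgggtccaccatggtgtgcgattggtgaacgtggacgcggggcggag

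Complex II, succinate dehydrogenase, is the one complex whose subunits are all nuclear, and all 4 fell with LPS, with a median of -0.35. Over all rows 22.4% were called lower, and 35.8% of the 7070 brightest rows. Sdha, the flavoprotein that oxidizes succinate, read 10.98, 10.96 and 10.85 with PBS, 10.59, 10.55 and 10.51 with LPS and 10.88, 10.90 and 10.90 with IL-4. The LPS arrays lay below all others, with a difference from PBS of -0.38 ± 0.052, adjusted p = 0.000479. Sdhb, the iron-sulfur subunit, read 10.32, 10.31 and 10.11 with PBS and 9.997, 9.98 and 9.78 with LPS (-0.33 ± 0.079, adjusted p = 0.0108). The membrane anchors were Sdhc, at 10.70, 10.73 and 10.56 with PBS and 10.53, 10.51 and 10.38 with LPS (-0.19 ± 0.064, adjusted p = 0.0433), and Sdhd, at 10.11, 10.07 and 9.73 with PBS and 9.58, 9.69 and 9.45 with LPS (-0.40 ± 0.104, adjusted p = 0.0154). In all 4 genes every LPS array was below every PBS array, and the third array was the lowest of both conditions. With IL-4 the 4 genes differed from PBS by between -0.07 (Sdhd) and 0.02 (Sdhc). The call of Sdha held in each of the 20 other settings. Those of Sdhb, Sdhc and Sdhd were lost in 2, 11 and 5 of them, including the equal-variance test of the methods and the subtraction of array medians.

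The Sdhd window lies at chr9:50603820-50604009 (minus strand), and Sdhd was the complex II gene with the largest fall. It holds 1 match to the NRF1 core and 1 to the ETS core, the latter as its reverse complement.
Sdhd: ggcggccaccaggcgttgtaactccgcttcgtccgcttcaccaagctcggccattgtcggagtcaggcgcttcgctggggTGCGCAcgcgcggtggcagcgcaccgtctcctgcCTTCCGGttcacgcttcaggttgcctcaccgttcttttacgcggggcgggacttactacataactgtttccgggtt

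Complex III, which passes electrons from coenzyme Q to cytochrome c, had fewer calls: 2 of 8 genes fell, 0 rose, and the median was -0.15. The share of 25% lower stands beside 22.4% of all rows and 35.8% of the 7070 brightest rows. Uqcrh, the hinge protein, read 11.31, 11.36 and 11.17 with PBS, 11.05, 11.11 and 10.96 with LPS and 11.16, 11.27 and 11.28 with IL-4. LPS and PBS arrays did not overlap, with a difference of -0.24 ± 0.069, adjusted p = 0.0238. Uqcrc1, a core subunit, read 10.59, 10.62 and 10.52 with PBS and 10.44, 10.47 and 10.28 with LPS (-0.18 ± 0.061, adjusted p = 0.0477). Neither call held in all other settings: both were lost with that equal-variance test, with only the 6 arrays of the comparison and with array medians subtracted. Uqcrb, the complex III row with the highest signal, read 11.83, 11.95 and 11.89 with PBS, 11.62, 11.82 and 11.71 with LPS and 11.55, 11.97 and 11.91 with IL-4. Its first IL-4 array lay below all others, and LPS differed from PBS by -0.17 ± 0.109 (adjusted p = 0.253). The subunits that carry the redox centres did not pass the test. Cyc1, cytochrome c1, differed by -0.12 ± 0.055 (adjusted p = 0.13), and Uqcrfs1, the Rieske iron-sulfur protein, lay on the other side of 0 at 0.12 ± 0.060 (adjusted p = 0.163).

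In the Uqcrh window, at chr4:116075041-116075230 (minus strand), the ETS core stands as its reverse complement just before the start, and no other match was found.
Uqcrh: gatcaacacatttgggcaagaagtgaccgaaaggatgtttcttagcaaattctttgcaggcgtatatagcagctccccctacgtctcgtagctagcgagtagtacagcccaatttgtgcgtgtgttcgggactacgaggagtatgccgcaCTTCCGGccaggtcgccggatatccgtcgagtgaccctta

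Complex IV, cytochrome c oxidase, had the smallest median difference with LPS, -0.06. It became 0.06 when array medians were subtracted and -0.14 with quantile normalization. Of its 17 genes 4 fell and 0 rose, a share of 23.5% lower beside 22.4% of all rows. The 4 are Cox7b, Cox8a, Cox5b and Cox6c, all ubiquitous subunits (10 measured, 40% called lower, median -0.18). The other 7 are forms tied to a tissue or to low oxygen, with 0 called and a median of 0.01. Cox7b read 11.31, 11.39 and 11.36 with PBS and 11.13, 11.19 and 11.13 with LPS (-0.20 ± 0.049, adjusted p = 0.0099), Cox8a read 11.75, 11.72 and 11.60 with PBS and 11.53, 11.57 and 11.45 with LPS (-0.17 ± 0.059, adjusted p = 0.0461) and Cox5b read 11.93, 11.94 and 11.99 with PBS and 11.80, 11.79 and 11.76 with LPS (-0.17 ± 0.046, adjusted p = 0.0202). LPS and PBS arrays did not overlap in these genes. Cox6c, the complex IV row with the highest signal, read 12.19, 12.12 and 12.10 with PBS, 11.99, 12.02 and 11.95 with LPS and 12.10, 12.12 and 12.11 with IL-4 (-0.15 ± 0.046, adjusted p = 0.034). No complex IV call held under all 20 other settings, and with array medians subtracted 0 complex IV genes were called lower and 2 higher. Quantile normalization called 7 lower and 2 higher, and array weights 8 lower and 2 higher. Cox7a2l, which helps to join complexes III and IV into supercomplexes, read 8.74, 8.76 and 8.35 with PBS and 8.48, 8.51 and 7.85 with LPS. The third array was far the lowest in both conditions and the difference, -0.34 ± 0.181, did not pass (adjusted p = 0.179).

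The Cox7b window, at chrX:106015540-106015729 (plus strand), holds no match to the 3 motifs.
Cox7b: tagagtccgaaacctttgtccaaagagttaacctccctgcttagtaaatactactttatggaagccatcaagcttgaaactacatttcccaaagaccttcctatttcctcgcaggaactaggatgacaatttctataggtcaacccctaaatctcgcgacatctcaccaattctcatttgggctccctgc

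Several subunits exist as a ubiquitous form and one tied to a tissue or to low oxygen, and none of the 8 such isoforms measured was called lower with LPS. Their median was 0.03, and 0.15 with array medians subtracted, against -0.18 and -0.07 for their 7 common counterparts. Of the counterparts 2 were called lower, and 0 after that subtraction, when 3 isoforms were called higher. The isoforms are dim rows, and the 28 members with a mean level under 9 had a median of -0.03. Cox4i2, the form induced by low oxygen and typical of lung, read 7.06, 7.04 and 7.14 with PBS, 7.27, 7.16 and 7.26 with LPS and 7.02, 7.01 and 6.92 with IL-4. LPS arrays were all above PBS arrays and PBS arrays above IL-4 arrays, and the difference passed between LPS and IL-4 (0.24 ± 0.056, adjusted p = 0.00777) but not between LPS and PBS (0.15 ± 0.056, adjusted p = 0.0686). Its counterpart Cox4i1 read 10.98, 10.99 and 10.67 with PBS, 10.74, 10.78 and 10.51 with LPS and 10.74, 10.72 and 10.74 with IL-4, with overlapping arrays and a difference of -0.20 ± 0.100 (adjusted p = 0.15). Cox6a2, the heart and muscle form, read 7.39, 7.34 and 7.33 with PBS, 7.56, 7.57 and 7.40 with LPS and 7.51, 7.46 and 7.52 with IL-4. All LPS and all IL-4 arrays lay above the PBS arrays, by 0.16 ± 0.058 and 0.14 ± 0.058, neither past the threshold (adjusted p = 0.0579 and 0.206). Cox6a1, its common counterpart, read 10.80, 10.85 and 10.71 with PBS and 10.62, 10.72 and 10.48 with LPS (-0.18 ± 0.074, adjusted p = 0.0909).

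Cox6b2, a testis form, read 8.20, 8.28 and 8.70 with PBS, 8.17, 8.15 and 8.70 with LPS and 8.81, 8.80 and 8.66 with IL-4. It was higher on the third PBS and LPS arrays and on all IL-4 arrays, as the motile cilia markers were, and no comparison passed the test. Cox6b1 read 11.43, 11.37 and 11.24 with PBS and 11.19, 11.23 and 10.96 with LPS (-0.22 ± 0.081, adjusted p = 0.0613). For the other pairs, the muscle form Cox7a1 differed by -0.03 ± 0.073 and Cox7a2 by -0.05 ± 0.092, the muscle form Cox8b by 0.06 ± 0.111 and the testis form Cox8c by 0.01 ± 0.087 against -0.17 for Cox8a, and Cox7b2 by -0.02 ± 0.042 against -0.20 for Cox7b. Cox7b2 read between 3.83 and 3.91 on all 9 arrays.

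Complex V, the ATP synthase, fell in 8 of 14 genes with 0 higher and a median of -0.20. The share of 57.1% lower stands beside 22.4% of all rows and 35.8% of the 7070 brightest rows. With array medians subtracted 3 of the 14 were lower and 0 higher, with a median of -0.085. In the catalytic F1 head 3 of 5 genes fell. Atp5c1, the gamma subunit that turns inside the head, read 11.29, 11.32 and 11.28 with PBS, 10.94, 10.96 and 10.93 with LPS and 11.20, 11.28 and 11.24 with IL-4. The LPS arrays lay below all others with little spread, and the difference from PBS was -0.36 ± 0.044, adjusted p = 0.00028. Atp5a1, the alpha subunit, fell by 0.24 (adjusted p = 0.00239), whereas Atp5b, the catalytic beta subunit, differed by -0.13 ± 0.045 and missed the threshold (adjusted p = 0.0526). Atp5d, the delta subunit and the complex V row with the highest signal, read 12.40, 12.40 and 12.37 with PBS, 12.14, 12.16 and 12.12 with LPS and 12.44, 12.38 and 12.44 with IL-4 (-0.25 ± 0.044, adjusted p = 0.00192). In the membrane, the proton-carrying c ring is made from genes that encode the same mature protein. Atp5g1, one of them, had the largest fall of the complex and read 6.99, 6.73 and 6.90 with PBS, 6.45, 6.53 and 6.16 with LPS and 6.88, 6.79 and 6.72 with IL-4. LPS and PBS arrays did not overlap, and the difference was -0.49 ± 0.106, adjusted p = 0.00617. Atp5g3, another, read 11.21, 11.16 and 10.97 with PBS and 11.001, 11.003 and 10.87 with LPS and differed by -0.15 ± 0.072 (adjusted p = 0.13). Of the 7 stalk and membrane subunits 4 fell: Atp5h, at 11.32, 11.29 and 11.31 with PBS and 10.96, 11.03 and 11.08 with LPS (-0.28 ± 0.050, adjusted p = 0.00221), Atp5j2 (-0.26), Atp5j (-0.19) and Atp5pb (-0.19). Atp5k, on the other side of 0 at 0.11 ± 0.102, did not pass (adjusted p = 0.429).

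No match to the motifs was found in the Atp5g1 window, at chr11:96075602-96075791 (minus strand).
Atp5g1: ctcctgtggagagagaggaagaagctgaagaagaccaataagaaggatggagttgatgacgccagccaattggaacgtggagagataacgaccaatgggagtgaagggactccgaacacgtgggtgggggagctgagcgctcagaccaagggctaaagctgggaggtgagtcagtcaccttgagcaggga

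**Figure D2:**
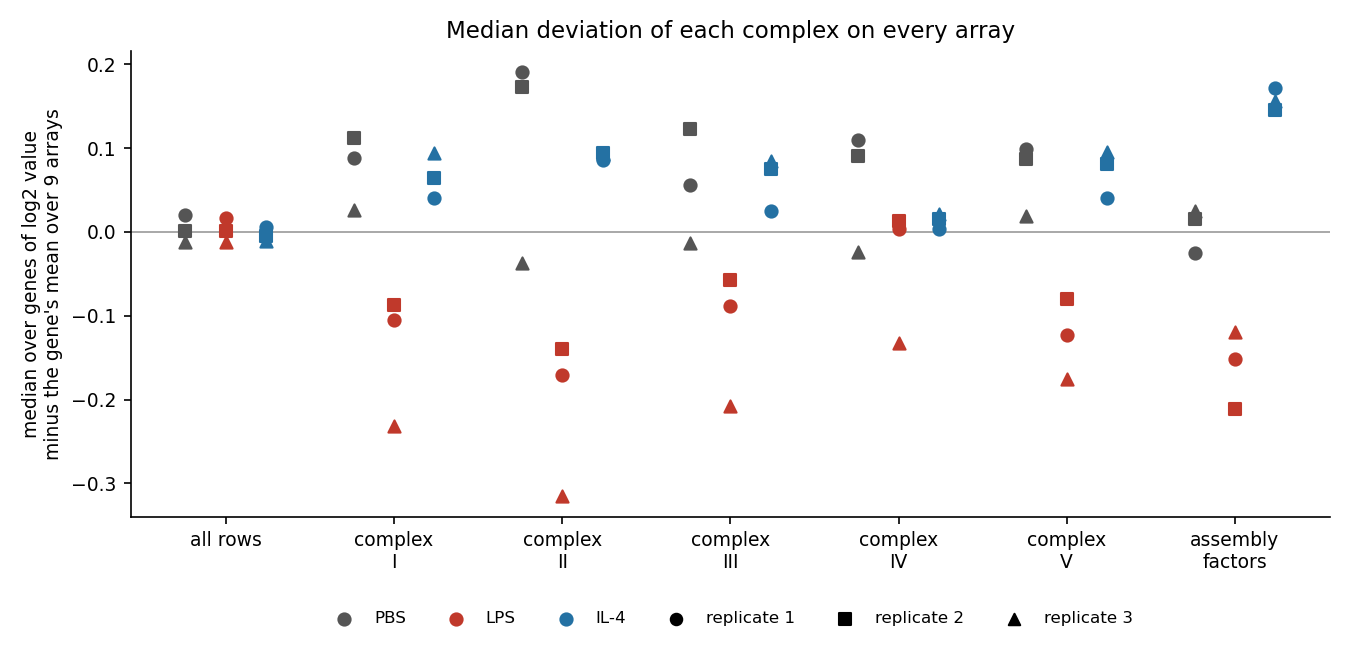
For each array, the median over the genes of a group of the log2 value minus the gene's mean over the 9 arrays; colours are conditions and symbols replicate numbers. In complexes I, II, III and V all 3 LPS arrays lie below the PBS and IL-4 arrays, with the third LPS array the lowest and the third PBS array the lowest of its condition, while in complex IV the conditions overlap and in the assembly factors the IL-4 arrays are the highest (0.15 to 0.17).

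The 10 assembly factors among the members held the largest single changes, with 5 lower and 0 higher with LPS. This 50% lower stands beside 22.4% of all rows. With array medians subtracted 2 of the 10 were called lower, with the methods' t-test 1 and on the 6 arrays of the comparison 3. Ndufaf7, an assembly factor of complex I, read 7.25, 7.28 and 7.76 with PBS, 6.73, 6.63 and 7.03 with LPS and 7.68, 7.76 and 7.61 with IL-4. The third array was the highest of the PBS and of the LPS arrays, opposite to most subunits, yet the LPS arrays lay below all others, with a difference from PBS of -0.63 ± 0.149, adjusted p = 0.00936. Uqcc3, which helps to build complex III, read 7.46, 7.32 and 7.18 with PBS, 6.69, 6.69 and 6.68 with LPS and 7.36, 7.33 and 7.18 with IL-4. The 3 LPS arrays were nearly identical and lay below all others (-0.63 ± 0.078, adjusted p = 0.000277). Uqcc2, its partner in cytochrome b assembly and the row of the group with the highest signal, read 10.54, 10.51 and 10.39 with PBS, 10.30, 10.22 and 10.11 with LPS and 10.58, 10.59 and 10.65 with IL-4 (-0.27 ± 0.065, adjusted p = 0.0108). Ndufaf6 (-0.17) and Ndufaf1 (-0.15) also passed the test with LPS, the first in 5 and the second in 8 of the 20 other settings. Ndufaf3 missed it with a difference of -0.40 ± 0.151 (adjusted p = 0.0661). Its values were 9.40, 9.40 and 9.86 with PBS, 9.06, 8.96 and 9.43 with LPS and 9.82, 9.90 and 9.83 with IL-4, with the third array highest with PBS and LPS.

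The Ndufaf7 window lies at chr17:78936975-78937164 (plus strand) and holds no match. Uqcc2 is added, at chr17:27133862-27134051 (minus strand), as a gene lower with LPS whose window holds 2 of the motifs, the NRF1 core at 2 places and the YY1 core after the start.
Ndufaf7: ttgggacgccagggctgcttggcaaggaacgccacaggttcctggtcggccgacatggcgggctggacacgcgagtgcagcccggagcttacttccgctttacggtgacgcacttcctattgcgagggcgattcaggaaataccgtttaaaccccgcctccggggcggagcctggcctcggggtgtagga
Uqcc2: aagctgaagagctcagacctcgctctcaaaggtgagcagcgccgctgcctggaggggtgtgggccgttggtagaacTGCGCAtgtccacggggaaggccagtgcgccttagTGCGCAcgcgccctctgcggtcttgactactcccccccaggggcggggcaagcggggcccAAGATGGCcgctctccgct

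**Figure D3:**
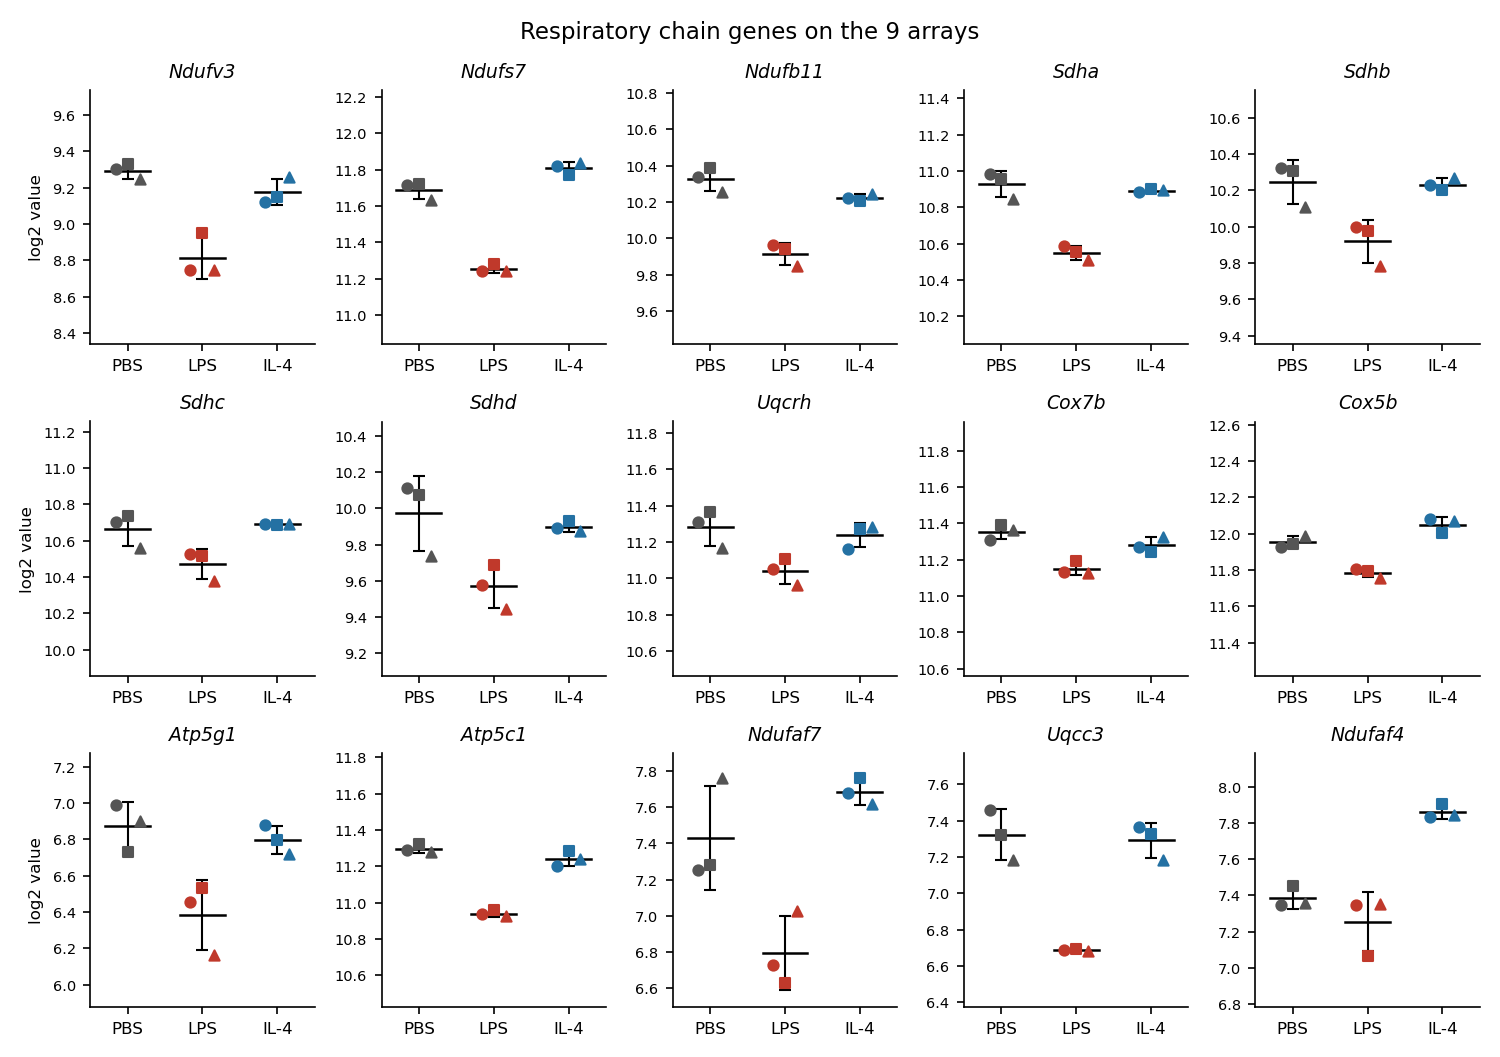
Log2 values of 15 respiratory chain genes on the 9 arrays (circles, squares and triangles for replicates 1, 2 and 3), with the mean and SD of each condition (n = 3); every panel spans the same number of log2 units. The LPS arrays lie below all PBS arrays in each gene but Ndufaf4, whose IL-4 arrays (7.83 to 7.90) lie above all others.

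IL-4 left the respiratory chain close to the PBS level. Of the 90 genes 1 was called higher and 0 lower, where 3.35% of all rows were called higher and 2.05% lower (6 of the 90 passed an unadjusted p under 0.05, and the equal-variance test of the methods gave the same counts, 1 higher and 0 lower). The median difference was 0.0040, and -0.04 with array medians subtracted, with 47 genes above and 43 below 0. For 66 of the 90 genes the 95% interval of the difference lay within 0.3 of 0, and for 84 within 0.5. All IL-4 arrays lay above all PBS arrays in 16 genes and below in 10, where 14.7% and 14.3% of all rows did so. Ndufaf4, an early assembly factor of complex I, was the gene that rose. It read 7.35, 7.45 and 7.36 with PBS, 7.35, 7.07 and 7.35 with LPS and 7.83, 7.90 and 7.84 with IL-4. The IL-4 arrays stood above all others with little spread, by 0.47 ± 0.081 against PBS (1.39-fold, adjusted p = 0.0136), while LPS differed from PBS by -0.13 ± 0.081 (adjusted p = 0.252). The call was lost when the first PBS, the second IL-4 or the third IL-4 array was left out, with adjusted p = 0.0603, 0.0669 and 0.0603. On the same arrays 4 of 7 fibroblast and meningeal markers were higher with IL-4 (Igf2 1.64, Dcn 1.21, Lum 1.14, Col3a1 0.41), with a median level of the list of 9.12 to 9.22 on the IL-4 arrays and 8.25 to 8.74 on the PBS arrays, and their part in the rise of Ndufaf4 was not tested.

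The Ndufaf4 window, at chr4:24897923-24898112 (plus strand), is shown because Ndufaf4 is the one member called higher than PBS. It holds the NRF1 core at 2 places, one of them at the start itself.
Ndufaf4: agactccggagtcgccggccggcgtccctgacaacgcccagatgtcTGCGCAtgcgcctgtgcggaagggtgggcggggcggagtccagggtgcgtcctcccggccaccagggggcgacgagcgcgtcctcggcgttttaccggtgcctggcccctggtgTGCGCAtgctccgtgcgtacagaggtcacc

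The other 9 assembly factors did not pass the test. Over all 10, Ndufaf4 included, 9 differences from PBS were positive and the median was 0.12, against 0.01 for complex I, -0.03 for complexes II and IV and 0.0015 and 0.0017 for complexes III and V. When array medians were subtracted, the median of the assembly factors was 0.08 with 3 of 10 negative, and those of all 5 complexes were negative, from -0.07 to -0.03. Ndufaf3 differed by 0.30 ± 0.151, Ndufaf7 by 0.25 ± 0.149 and Ndufaf5 by 0.17 ± 0.058, the last with no overlap between IL-4 and PBS arrays. Ndufaf3 and Ndufaf7 were also high on the third PBS array, as the motile cilia markers were, and the part of those cells was not tested. With the arrays weighted by their quality, 7 members were called higher and 15 lower with IL-4, beside 4136 higher and 4159 lower of the 21212 rows. Without the third PBS and LPS arrays 4 members were higher and 9 lower, beside 3518 and 2871 rows.

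The direct comparison of the stimuli tests whether their effects differed. LPS was below IL-4 in 46 of the 90 genes and above in 1, Cox4i2, where 25.9% of all rows were called lower and 21.0% higher. The median difference was -0.19. After subtraction of array medians the counts were 13 lower and 9 higher, and all rows split into 9567 higher and 3697 lower in place of 4458 higher and 5495 lower. Of the 41 genes below PBS with LPS, 34 were also below IL-4 (82.9% of the 41 and 73.9% of the 46). Both comparisons use the same LPS arrays, and the overlap over all rows was not counted, so this share has no background beside it. By complex, 19 of 37 genes of complex I, 4 of 4 of complex II and 3 of 8 of complex III were lower with LPS. In complex IV 2 of 17 and in complex V 10 of 14 were lower with LPS than with IL-4. With array medians subtracted, complex I had 5 lower and 2 higher, complex II 1 and 0, and complex III 0 and 1. On that scale complex IV had 0 lower and 5 higher and complex V 2 lower and 1 higher. The median of complex IV was -0.05, which turned to 0.10 with array medians subtracted and to -0.14 with quantile normalization. In complex I the largest difference was that of Ndufs7 (-0.56 ± 0.047, adjusted p = 2.98e-05), followed by Ndufa8 (-0.44 ± 0.063, adjusted p = 0.000606). Complex III added Cyc1 (-0.27 ± 0.055, adjusted p = 0.00434) and Uqcrc2, a core subunit (-0.16 ± 0.044, adjusted p = 0.0174), and complex V added the catalytic Atp5b (-0.19 ± 0.045, adjusted p = 0.00782).

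Among the assembly factors 8 of 10 were lower with LPS than with IL-4, -0.33 in the median, led by Ndufaf7 (-0.89 ± 0.149, adjusted p = 0.00147), Ndufaf3 (-0.70 ± 0.151, adjusted p = 0.00537), Uqcc3 (-0.60 ± 0.078, adjusted p = 0.000346) and Ndufaf4 (-0.60 ± 0.081, adjusted p = 0.00043). With array medians subtracted, 5 of the 10 were lower with LPS than with IL-4 and 0 higher. In Ndufaf4 the gap came mainly from the higher IL-4 arrays and in Uqcc3 from the lower LPS arrays, as their values above show.

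Around the chain, AA467197, a paralog of Ndufa4 that the symbol rule does not take in, made the largest change of all the respiratory genes listed here. AA467197 read 6.76, 6.75 and 6.37 with PBS, 11.62, 11.50 and 11.44 with LPS and 6.85, 6.72 and 6.96 with IL-4. LPS raised it by 4.89 ± 0.115 (29.7-fold, adjusted p = 1.97e-08), whereas IL-4 differed from PBS by 0.22 ± 0.115 (adjusted p = 0.329). Ndufa4 itself read 9.94, 9.96 and 9.79 with PBS, 9.89, 9.89 and 9.80 with LPS and 9.89, 9.94 and 9.89 with IL-4. Its 9 arrays lay between 9.79 and 9.96, and LPS differed from PBS by -0.04 ± 0.059, with a 95% interval of -0.17 to 0.10. The rise of AA467197 was seen in each replicate pair, at 4.86, 4.75 and 5.07.

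The AA467197 window, at chr2:122637727-122637916 (plus strand), is shown beside those of the members as that of the gene with this rise. None of the 3 motifs was found in it.
AA467197: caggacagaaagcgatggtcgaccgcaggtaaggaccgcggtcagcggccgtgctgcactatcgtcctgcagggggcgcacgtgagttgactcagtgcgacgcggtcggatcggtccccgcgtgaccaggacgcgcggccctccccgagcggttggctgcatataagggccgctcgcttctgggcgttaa

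Of 36 assembly factors and chaperones outside the symbol rule, 19 fell with LPS (52.8%) and 5 rose (13.9%), beside 22.4% and 15.4% of all rows. Their median was -0.24 (12 fell and 8 rose with array medians subtracted). Sco1, which delivers copper to cytochrome oxidase, read 7.28, 7.26 and 7.12 with PBS and 8.40, 8.28 and 8.29 with LPS (1.11 ± 0.068, adjusted p = 4.05e-06), and Cox17, the copper carrier before it, read 7.21, 7.38 and 7.14 with PBS and 8.31, 8.10 and 7.93 with LPS (0.87 ± 0.115, adjusted p = 0.000408). Cox18, which inserts a mitochondrially encoded subunit into the membrane, read 9.92, 9.92 and 9.96 with PBS, 10.89, 10.92 and 10.97 with LPS and 10.18, 10.17 and 10.17 with IL-4 and rose with both stimuli, by 0.99 ± 0.044 with LPS and 0.24 ± 0.044 with IL-4 (adjusted p = 5.98e-07 and 0.0184). Cox15, needed for the haem of the oxidase (0.57 ± 0.073, adjusted p = 0.000346), and Coa5 (0.65 ± 0.116, adjusted p = 0.0023) were the other two. Among those that fell were Tmem126b of the complex I assembly machine, at 8.49, 8.60 and 8.39 with PBS and 7.50, 7.67 and 7.48 with LPS (-0.95 ± 0.074, adjusted p = 1.81e-05), Sdhaf1, which loads iron-sulfur clusters into complex II, at 8.25, 8.28 and 8.26 with PBS and 7.32, 7.54 and 7.34 with LPS (-0.86 ± 0.068, adjusted p = 1.84e-05), and Bcs1l, which inserts the Rieske protein into complex III, at 8.47, 8.50 and 8.44 with PBS and 7.74, 7.64 and 7.58 with LPS (-0.82 ± 0.055, adjusted p = 7.36e-06). In these genes LPS and PBS arrays were far apart. Surf1 of complex IV fell as well (-0.55 ± 0.067, adjusted p = 0.000234). With IL-4, 2 of the 36 rose (5.56%, beside 3.35% of all rows), Cox18 and the complex I factor Timmdc1 (0.23 ± 0.043, adjusted p = 0.0182), and 0 fell.

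Of 8 measured electron carriers and nucleotide exchangers, 5 fell and 1 rose with LPS (62.5% and 12.5%, beside 22.4% and 15.4% of all rows). The gene that rose was Cycs, somatic cytochrome c, at 5.77, 5.78 and 5.38 with PBS, 6.85, 6.72 and 6.50 with LPS and 5.70, 6.01 and 5.95 with IL-4 (1.05 ± 0.139, adjusted p = 0.000419 for LPS). Etfdh, which feeds electrons from fatty acid oxidation to coenzyme Q, read 9.50, 9.52 and 9.60 with PBS and 8.96, 8.98 and 9.05 with LPS (-0.55 ± 0.054, adjusted p = 7.31e-05), and Etfb, of the flavoprotein before it, 10.77, 10.76 and 10.77 with PBS and 10.34, 10.39 and 10.31 with LPS (-0.42 ± 0.046, adjusted p = 0.000129). The ADP/ATP carriers Slc25a4 (-0.36) and Slc25a5 (-0.29) and the phosphate carrier Slc25a3 (-0.22) fell too, and 0 of the 8 were called with IL-4. With array medians subtracted, 3 of the 8 fell and 2 rose with LPS. Of 12 genes of coenzyme Q synthesis and handling 4 fell and 2 rose, or 33.3% and 16.7%, beside 22.4% and 15.4% of all rows. Coq10a read 9.09, 9.05 and 8.74 with PBS, 8.0004, 7.83 and 7.82 with LPS and 8.55, 8.46 and 8.53 with IL-4 and fell with both LPS (-1.08 ± 0.098, adjusted p = 4.53e-05) and IL-4 (-0.45 ± 0.098, adjusted p = 0.0372), while Coq10b read 8.38, 8.33 and 8.16 with PBS, 9.10, 9.21 and 9.23 with LPS and 8.59, 8.55 and 8.58 with IL-4 and rose with LPS (0.89 ± 0.068, adjusted p = 1.63e-05). Both encode lipid-binding proteins that escort coenzyme Q, and their arrays moved apart in opposite directions. Coq9 fell (-0.61 ± 0.045, adjusted p = 1.2e-05).

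Among 13 regulators of these genes and of mitochondrial DNA, 5 fell and 4 rose with LPS (3 and 6 with array medians subtracted). These are 38.5% and 30.8%, beside 22.4% and 15.4% of all rows. Ppargc1a, the coactivator PGC-1alpha of mitochondrial biogenesis, read 9.16, 9.18 and 9.15 with PBS, 7.29, 7.20 and 7.33 with LPS and 9.19, 9.07 and 9.10 with IL-4. The LPS arrays lay far below all others (-1.89 ± 0.054, adjusted p = 5.17e-08 against PBS), and IL-4 differed from PBS by -0.04 ± 0.054 (adjusted p = 0.674). Its relative Pprc1 rose with LPS (0.56 ± 0.089, adjusted p = 0.0012), as did Gabpb1, a partner of the ETS factor GABPA, at 7.88, 8.03 and 8.02 with PBS and 8.84, 8.73 and 8.72 with LPS (0.79 ± 0.060, adjusted p = 1.53e-05), Gabpa itself (0.17 ± 0.044, adjusted p = 0.0148) and Nrf1 (0.18 ± 0.059, adjusted p = 0.0404). Twnk, the helicase of mitochondrial DNA, read 7.03, 6.89 and 6.83 with PBS and 5.95, 6.04 and 6.30 with LPS (-0.82 ± 0.093, adjusted p = 0.000165), and Tfb1m, a mitochondrial rRNA methyltransferase, was lower with LPS (-0.27 ± 0.043, adjusted p = 0.00119) and higher with IL-4 (0.19 ± 0.043, adjusted p = 0.0408). Tfam, the packaging and transcription factor of mitochondrial DNA, did not pass in either comparison (0.17 ± 0.088 and 0.18 ± 0.088). Of 76 mitochondrial ribosome genes 33 fell (43.4%) and 9 rose (11.8%) with LPS. Their median was -0.12, and -0.0037 when array medians were subtracted (19 lower and 13 higher). The largest falls were those of Mrpl40 (-0.72 ± 0.065, adjusted p = 4.31e-05), Mrpl49 (-0.68 ± 0.067, adjusted p = 7.27e-05) and Mrpl42 (-0.67 ± 0.089, adjusted p = 0.000434). With IL-4 4 of the 76 rose (5.26%, beside 3.35% of all rows) and 0 fell.

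**Figure D4:**
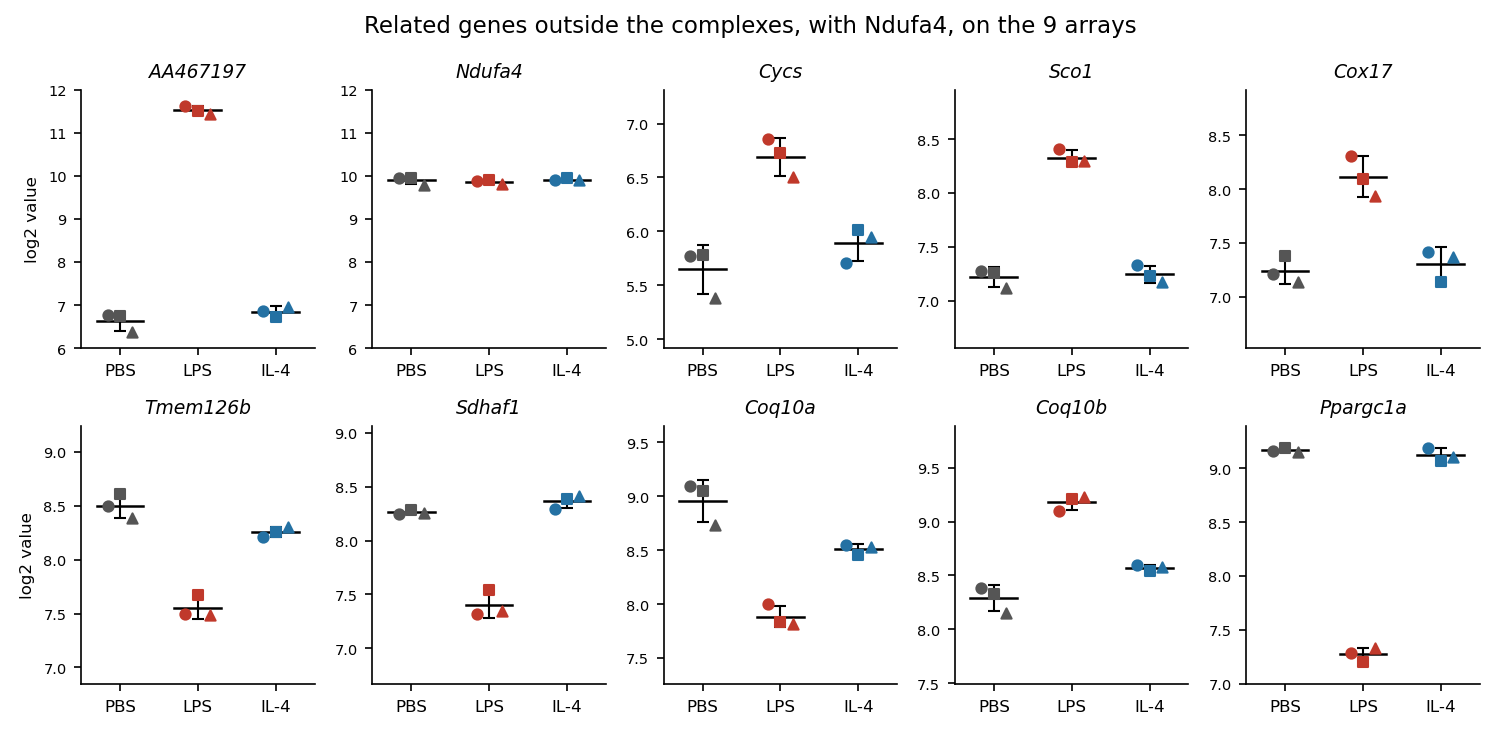
Log2 values on the 9 arrays of AA467197 beside Ndufa4 (on a shared axis range) and of 8 genes of assembly, electron transfer, coenzyme Q and regulation (axes of equal span), with the mean and SD of each condition (n = 3). AA467197, Cycs, Sco1, Cox17 and Coq10b are higher on all LPS arrays, Tmem126b, Sdhaf1, Coq10a and Ppargc1a lower, and Ndufa4 stays between 9.79 and 9.96.

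A promoter was listed for 72 of the 90 members (77 promoters, 5 genes with 2), out of 32851 promoters of 27025 genes. Over the whole windows, 250 bases before to 50 after the start, the NRF1 core was found in 24.7% of the members' promoters and in 7.76% of all promoters, the ETS core in 19.5% and 8.86%, and the YY1 core in 14.3% and 2.75%. At least 1 of the 3 stood in 46.8% of the members' promoters and 17.3% of all. No 2 different motifs overlapped in the members' promoters. Promoters of the genes that fell with LPS held at least 1 motif in 20 of 38 cases and those of the other members in 16 of 39. The YY1 core was found in 7 of 34 complex I and 3 of 15 complex V promoters and in 0 of 12 complex IV promoters. These are matches of letters and were not tested.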

How the data were processed

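Total RNA of 9 samples was hybridized to Affymetrix Mouse Exon 1.0 ST arrays, 3 per condition. The authors deposited expression on the log2 scale, made with RMA and the affy package (versions not given in the sources used here), 1 row per gene identifier and 21212 rows in all. Gene symbols came from the platform annotation. The number of arrays limits the precision.

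A model with a mean per condition over all 9 arrays was fitted to every row with limma 3.58.1 in R 4.3.3 (lmFit, eBayes, residual df 6), after it was tested on simulated data. P-values were adjusted by the Benjamini-Hochberg method over all rows and called under 0.05. Values on each array are given for the 3 members of each complex with the largest called changes with LPS, every member called with IL-4, the row with the highest signal of each complex, the Sdh genes, the isoform pairs, and the 3 largest called changes of each other list. Further genes were named after their values were seen. The members and lists were chosen with earlier results of these data known.

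Same-numbered LPS and PBS arrays deviated together from their condition means (r = 0.578, 0.651 and 0.800 over all rows), but so did PBS 1 with LPS 2 (r = 0.605) and PBS 2 with LPS 1 (r = 0.542), so number 3 alone is set apart, while same-numbered IL-4 and PBS arrays did not (r = 0.339, -0.255 and 0.0752). Alternatives were the methods' t-test, the 6 arrays of a comparison, trended and robust eBayes, array weights, quantile normalization, subtraction of array medians, the 7070 dimmest rows left out, the replicate number as a block, 7 arrays without the third PBS and LPS arrays, and each array left out. Promoters came from RefSeq (GRCm38.p6).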

Additional observations from a re-analysis of the deposited data

How the results depend on the processing

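For LPS against PBS, 41 of 90 genes were called lower and 0 higher. The methods' t-test called 24 lower, and subtraction of array medians 16 lower and 4 higher with a median of -0.0708. Array weights gave 58 lower and 3 higher, and quantile normalization 54 lower and 3 higher with a median of -0.239. The fit without the 7070 dimmest rows gave 47 lower and 2 higher, and the 7 arrays 53 lower and 1 higher. Leaving out 1 array gave 26 to 45 lower (26 without the second PBS array) and 0 to 1 higher. Counts over all rows moved as well. Of all rows 4748 were lower in the main fit, 3050 with the t-test, 3323 with array medians subtracted and 6144 with array weights. Quantile normalization gave 4694 lower rows, the 7 arrays 6000, and the fit without the dimmest rows 4806 of 14142. Leaving out 1 array gave 3944 to 4955 lower rows. For IL-4 against PBS (0 lower, 1 higher), array weights gave 15 members lower and 7 higher, the 7 arrays 9 lower and 4 higher, a trended eBayes 1 lower, and leaving out 1 array 0 to 1 higher. Over all rows the main fit gave 435 lower and 711 higher, array weights 4159 and 4136, and the 7 arrays 2871 and 3518. For LPS against IL-4 (46 lower, 1 higher), subtraction of array medians gave 13 members lower and 9 higher with a median of -0.0399. Array weights gave 51 lower and 3 higher, and quantile normalization 51 lower and 4 higher with a median of -0.243. The 7 arrays gave 49 lower and 5 higher, and leaving out 1 array 32 to 49 lower and 1 to 2 higher. Of all rows 5495 were lower in the main fit, 3697 with array medians subtracted and 6739 with array weights. Quantile normalization gave 5214 lower rows and the 7 arrays 6851. The cause of these moves was not tested. Of the calls of single genes given by the naming rule, 59 of 779 alternative values lost the threshold with the same direction and none reversed. That rule takes mainly the largest called changes, also from the lists outside the members, so this loss is not that of all calls. Of the 41 members called lower with LPS than with PBS, 13 held in each of the 20 settings.

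When replicate numbers entered the fit as a block (all 9 arrays), 46 genes were lower and 0 higher with LPS than with PBS, 0 lower and 1 higher with IL-4, and 48 lower and 3 higher with LPS than with IL-4. Over all rows that block gave 5329, 575 and 6073 lower in the 3 comparisons. On the 6 arrays of a comparison the block gave 54, 0 and 33 members lower, beside 6119, 114 and 5158 rows.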
